A study of Mus musculus with 2 samples.

Results

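The genes described here encode the kinetochore, the protein assembly that ties each chromosome to the spindle, and the checkpoint that halts division until every chromosome is attached. They were taken from the count table by symbol, as every gene named Cenp plus 1 letter together with a fixed list of kinetochore, checkpoint and chromosomal passenger genes, which gave 44 of 19595 genes. The knockdown group, labelled sh1 with the genotype KO, and the control group, labelled psicor with the genotype WT, were both prepared from neural stem cells of the embryonic brain (strain ICR, E13) and sequenced from total RNA. The series title asks how Ccdc25 bears on neurogenesis, and the design text speaks of a control and a knockdown in triplicate. With 1 count column for the knockdown and 1 for the control, the differences lack any replicate check and no test was made. The sources used here do not say how the knockdown was delivered or whether a column is a single culture or a pool.

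The constitutive centromere-associated network sits on the histone variant CENP-A and stays at the centromere through the whole cell cycle. In mitosis it recruits the Knl1, Mis12 and Ndc80 complexes, which grip microtubules, and the kinases and Mad and Bub proteins of the checkpoint, which restrain the anaphase-promoting complex. Messenger RNAs of the mitotic proteins peak in G2 and M phase in dividing cells, and neural progenitors of the embryonic brain depend on accurate segregation to keep their number.

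Ccdc25, the targeted gene, had 411 counts (26.1 CPM, counts per 1000000 of the scaled library) in the knockdown library, against 553 counts (32.8 CPM) in the control library. The ratio was 0.794, with a 95% interval of 0.697 to 0.904. Its log2 fold of -0.33 lay inside the quartiles of all genes averaging 1 CPM or more (-0.36 and 0.36). Of those genes, 33.6% had an interval wholly below 1, so Ccdc25 did not stand out among them. All intervals here are exact conditional binomial (Clopper-Pearson) ones and cover counting error only. PCR copies of a molecule are counted separately, so the intervals can be too narrow even for that. Depth was similar, with 16058407 counts on genes in the knockdown library and 16549682 in the control library. Markers of neural stem cells were present in both libraries, and all 10 of the list stood higher in the knockdown library (49.7% of all genes). They summed to 8795 CPM there and to 6724 CPM in the control library.

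Of the 44 kinetochore genes, 40 stood below their control level, beside 50.3% of the 14158 genes that averaged 1 CPM or more, and 4 stood above it (49.7% of all genes). All 44 passed that minimum, and their counts ran between 59 and 5799. Intervals wholly below 1 were found for the same number, 40 (33.6% of all genes), and intervals wholly above 1 for 3 (33.2%). In 20 of 44 the level was at least 1.5-fold lower, a share of 45.5%, where 15.7% of all genes were. Only Bub1 and Cenpe were at least 2-fold lower (7.76% of all genes), and none of the 44 was 1.5-fold higher (16.0%) or 2-fold higher (7.64%). With a trend with exonic length and GC content removed, neither of the pair was past 2-fold (log2 folds of -0.97 for Bub1 and -0.90 for Cenpe), and Aurkb, at -1.01, was the 1 gene that was. The median log2 fold was -0.53, beside -0.00 over all genes, and the members ran from -1.06 to 0.42. Fewer dividing cells and less of these RNAs per cell cannot be told apart in such bulk samples.

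**Figure D1:**
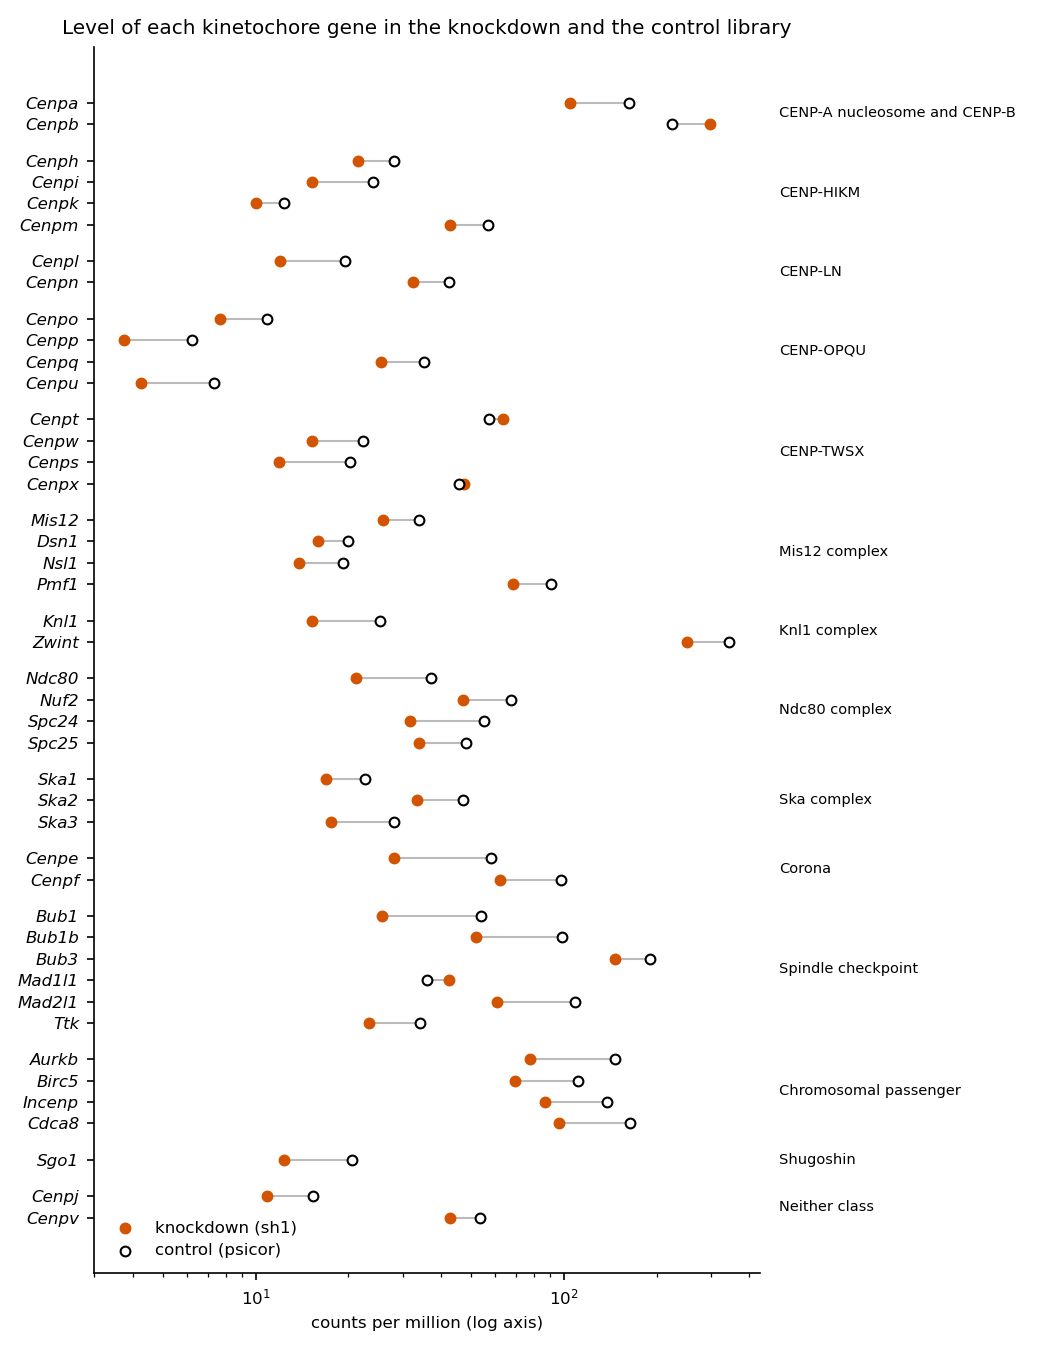
Level of each of the 44 genes in CPM on a log axis, with the knockdown library as filled points and the control library as open points, grouped by complex. The filled point lies left of the open one for 40 genes and right of it for Cenpb, Cenpt, Cenpx and Mad1l1.

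The constitutive class was split between a majority of lower genes and 3 genes that were not. Of its 16 members, 13 stood below their control level (50.3% of all genes), and 6 of these were lower by 1.5-fold or more (15.7% of all genes). The class had a median log2 fold of -0.48. Cenpa (GRCm38 chromosome 5, 30666777 to 30674830, plus strand), the histone variant that marks the centromere, had 1659 counts (105 CPM) in the knockdown library, against 2750 counts (163 CPM) in the control library. Its ratio was 0.645 (0.606 to 0.685). Cenpb (chromosome 2, 131175182 to 131180067, minus strand), which binds a short motif in centromeric satellite DNA, went the opposite way. It had 4718 counts (299 CPM) in the knockdown library, against 3771 counts (224 CPM) in the control library, a ratio of 1.34 (1.28 to 1.40). Of the 44 genes it had the highest ratio, and 77.9% of all genes had a lower log2 fold.

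The subcomplexes of the constitutive network differed in how uniform they were. Its members CENP-H, I, K and M form a core that links CENP-A to the outer kinetochore, and all 4 genes were lower, with log2 folds between -0.66 for Cenpi and -0.31 for Cenpk. Cenpl and Cenpn, whose products form a dimer that reads the CENP-A nucleosome, had log2 folds of -0.70 and -0.39. In the group of Cenpo, Cenpp, Cenpq and Cenpu, whose products help bind microtubules and Polo-like kinase, all were lower, with a median of -0.61. Cenpp and Cenpu were the scarcest of the 44, with 59 and 67 counts in the knockdown library and 105 and 123 in the control library, so the interval of Cenpu ran from 0.426 to 0.790. Cenpu shares 1069 exonic bases with Primpol and Cenpo shares 1380 with Adcy3, both on the opposite strand, and the sources do not say whether counting used strand.

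The 4 histone-fold genes differed from each other. Cenps had 187 counts (11.9 CPM) in the knockdown library, against 341 counts (20.2 CPM) in the control library, a ratio of 0.586 (0.488 to 0.702), and Cenpw had a ratio of 0.681 (0.577 to 0.803). Cenpx, whose product pairs with that of Cenps both at centromeres and in DNA repair, had 751 counts (47.6 CPM) in the knockdown library, against 769 counts (45.6 CPM) in the control library. The ratio for Cenpx was 1.04 (0.942 to 1.16), an interval that does not overlap that of Cenps, and its log2 fold of 0.06 became -0.08 once a trend with length and GC content was removed. Likewise Cenpt, whose product pairs with that of Cenpw and reaches out to the Ndc80 complex, had 1004 counts (63.7 CPM) in the knockdown library, against 966 counts (57.3 CPM) in the control library. Its ratio of 1.11 (1.02 to 1.21) lay above the whole interval of Cenpw. Each pair of binding partners therefore held 1 lower gene and 1 gene at or slightly above its control level.

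The sum over the class rested on Cenpb. Summed over the 16 constitutive genes, the level was 718 CPM in the knockdown library and 775 CPM in the control library, a ratio of 0.926 (0.903 to 0.949). Without Cenpb, left out after its value was seen, the ratio of the other 15 was 0.759 (0.735 to 0.783). Per exonic length, Cenpb stood at 61.2 CPM per kb in the knockdown library, the highest level per kb of the 44 there, and at 45.8 CPM per kb in the control library.

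Of the 26 mitotic genes, 25 stood below their control level (50.3% of all genes), 14 of them at least 1.5-fold (15.7% of all genes). The median log2 fold was -0.66. Their summed level was 1375 CPM in the knockdown library and 2096 CPM in the control library, a ratio of 0.656 (0.645 to 0.667). The microtubule-binding Ndc80 complex was lower in all 4 subunits. Ndc80 (chromosome 17, 71496100 to 71526857, minus strand) had 334 counts (21.2 CPM) in the knockdown library, against 626 counts (37.1 CPM) in the control library, a ratio of 0.570 (0.498 to 0.652). Spc24 had a ratio of 0.575, while Nuf2 and Spc25 had 0.695 and 0.702. The dimer partners Ndc80 and Nuf2 had overlapping intervals, 0.498 to 0.652 for Ndc80 and 0.633 to 0.763 for Nuf2, as had Spc24 (0.514 to 0.641) and Spc25 (0.628 to 0.784).

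The Mis12 complex, which joins the Ndc80 complex to the inner centromere, had the narrowest range and the highest median log2 fold of the mitotic complexes with more than 1 subunit. Its 4 genes, Mis12, Dsn1, Nsl1 and Pmf1, had log2 folds from -0.48 to -0.32, and none was 1.5-fold lower. Knl1, the scaffold on which Bub proteins gather, had 240 counts (15.2 CPM) in the knockdown library, against 428 counts (25.4 CPM) in the control library, a ratio of 0.599 (0.509 to 0.703). Zwint, its partner, was the most abundant of the 44 in the control library, with 3964 counts (251 CPM) in the knockdown library, against 5799 counts (344 CPM) in the control library. The ratio for Zwint was 0.730 (0.701 to 0.761), which overlaps that of Knl1 only at its edge. Ska1, Ska2 and Ska3, which hold the kinetochore on shrinking microtubules, had log2 folds of -0.43, -0.49 and -0.68.

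The widest spread within a complex was found in the spindle checkpoint, where log2 folds ran from -1.06 to 0.23. Bub1 (ENSMUSG00000027379, chromosome 2, 127801122 to 127831865, minus strand), a kinase that marks centromeric histone H2A, had 406 counts (25.7 CPM) in the knockdown library, against 908 counts (53.9 CPM) in the control library. Its ratio of 0.478 (0.424 to 0.538) was the lowest of the 44, and 7.08% of all genes had a lower log2 fold. Bub1b, which encodes the checkpoint protein BubR1, had 820 counts (52.0 CPM) in the knockdown library, against 1658 counts (98.4 CPM) in the control library, a ratio of 0.528 (0.485 to 0.575). Bub3, the adaptor that both bind, had 2320 counts (147 CPM) in the knockdown library, against 3204 counts (190 CPM) in the control library. The interval of Bub3, 0.733 to 0.816, lay above those of Bub1 and Bub1b.

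The same kind of split was seen for the Mad proteins. Mad2l1, the protein that changes shape to block anaphase, had 957 counts (60.7 CPM) in the knockdown library, against 1830 counts (109 CPM) in the control library, a ratio of 0.559 (0.516 to 0.605). Mad1l1 (chromosome 5, 140008689 to 140321552, minus strand), the platform on which Mad2 is converted, had 667 counts (42.3 CPM) in the knockdown library, against 609 counts (36.1 CPM) in the control library. With a ratio of 1.17 (1.05 to 1.31), Mad1l1 was the single mitotic gene above its control level. Ttk, the kinase that starts checkpoint signalling, had a ratio of 0.685 (0.599 to 0.782).

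**Figure D2:**
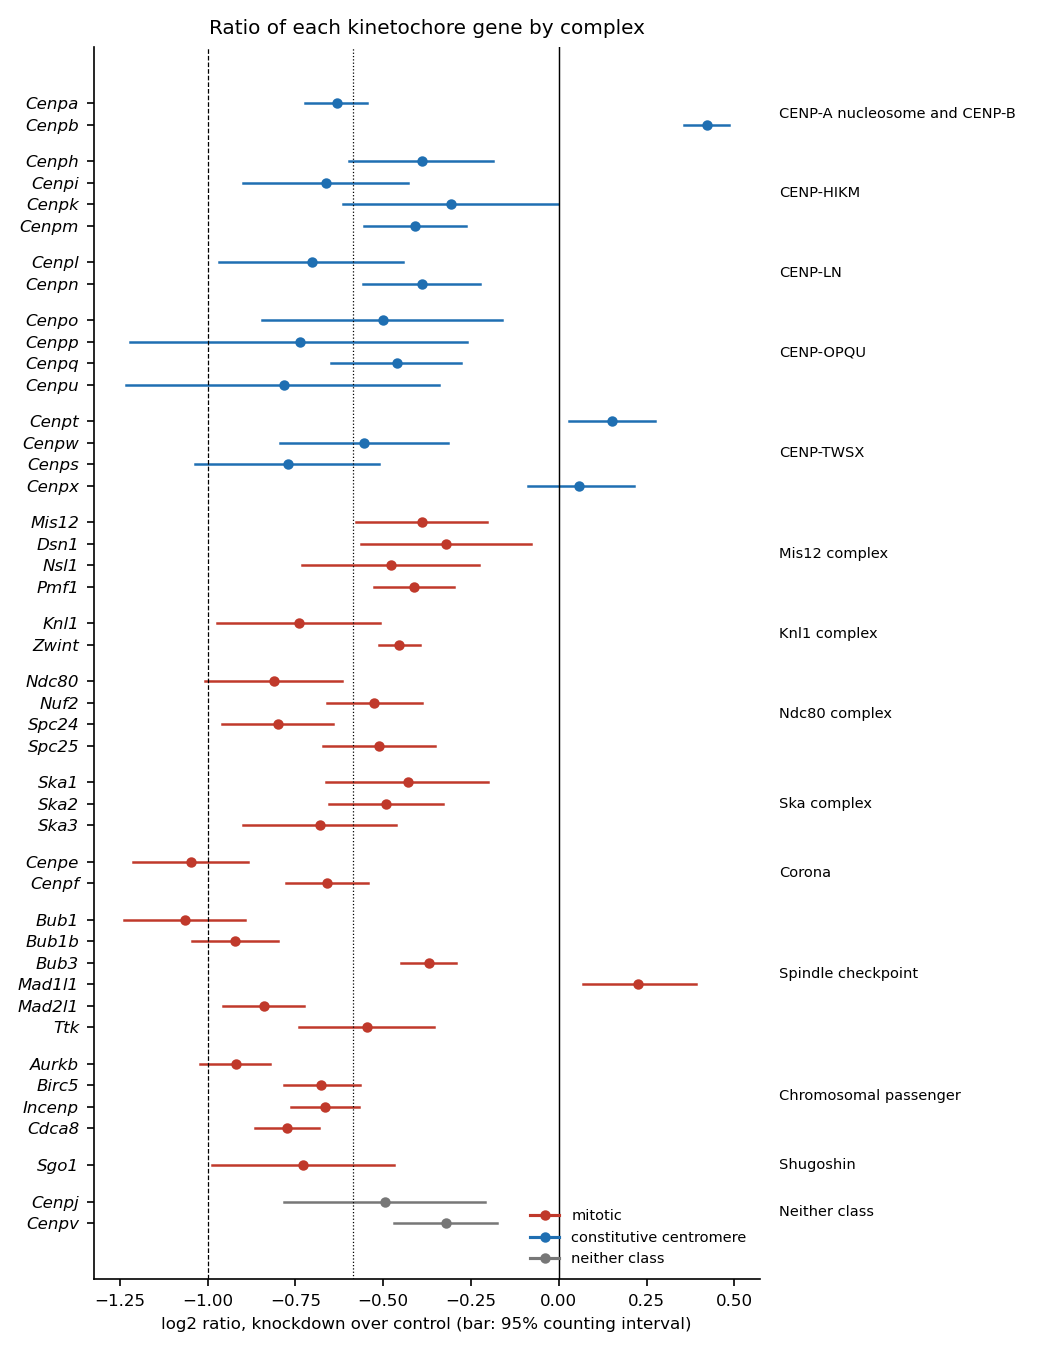
Log2 ratio of each gene, knockdown over control, with its 95% counting interval as a bar, grouped by complex and coloured by class; the dotted line marks 1.5-fold and the dashed line 2-fold lower. Bub1 and Cenpe lie past the dashed line, while Cenpb, Cenpt and Mad1l1 have intervals right of 0 and the interval of Cenpx spans 0.

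All 4 genes of the chromosomal passenger complex, which corrects faulty attachments, were at least 1.5-fold lower (15.7% of all genes). Aurkb (chromosome 11, 69045647 to 69051664, plus strand), its kinase, had 1220 counts (77.4 CPM) in the knockdown library, against 2466 counts (146 CPM) in the control library, a ratio of 0.529 (0.493 to 0.566). The scaffold Incenp, Birc5 (survivin) and Cdca8 (borealin) had ratios of 0.630, 0.626 and 0.585. The interval of Aurkb lay below those of Incenp (0.589 to 0.674) and Birc5 (0.581 to 0.675). By these intervals the kinase stood further below its control level than these 2 partners.

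Of the corona genes, Cenpe (chromosome 3, 135212537 to 135273611, plus strand), a kinesin that carries chromosomes to the spindle equator, had 443 counts (28.1 CPM) in the knockdown library, against 978 counts (58.0 CPM) in the control library. The ratio for Cenpe was 0.484 (0.432 to 0.542), and for Cenpf, a large coiled-coil protein, 0.633 (0.584 to 0.686). Sgo1, the shugoshin that protects centromeric cohesin, had 195 counts (12.4 CPM) in the knockdown library, against 345 counts (20.5 CPM) in the control library. Cenpj, which despite its name is a centriole protein, and Cenpv were placed in neither class. Both were lower, with ratios of 0.710 (0.582 to 0.864) for Cenpj and 0.800 (0.723 to 0.885) for Cenpv.

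The difference between the classes was small beside the spread within them. The mitotic median lay 0.18 log2 units below the constitutive one (mitotic minus constitutive, -0.18), and 18 of the 26 mitotic genes lay below the constitutive median. However, 19 of the 26 lay inside the range of the constitutive genes, and 7 lay below its lowest member, Cenpu. The difference was -0.05 after a trend with exonic length and GC content over all genes was removed, and -0.11 without the 12 members that share exonic bases with another gene. Beside Cenpo and Cenpu, these are Ska2 (329 bases), Cenpp (315), Cenpk (233), Cdca8 (232), Mis12 (231), and Cenpq, Ska3, Mad1l1, Cenpb and Cenpt with 8 to 95, whose counts are uncertain to that extent. For a rough span, the median of the members' lower interval bounds and the median of their upper bounds were taken in each class. Set against each other at opposite ends, these put the difference between -0.51 and 0.22. This span is not an exact interval of the difference.

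**Figure D3:**
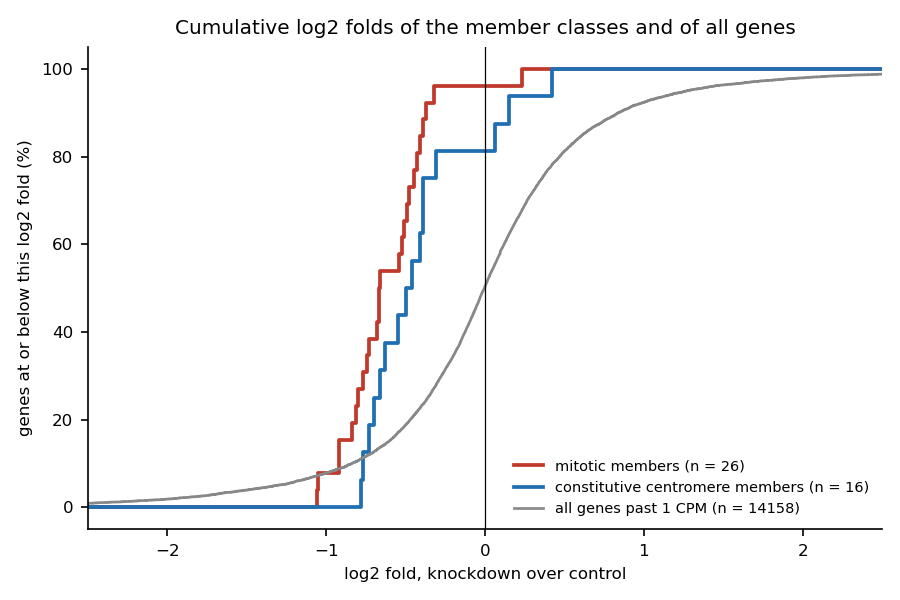
Percentage of genes at or below each log2 fold, knockdown over control, for the 26 mitotic genes, the 16 constitutive centromere genes and the 14158 genes past 1 CPM. Both member curves lie left of the curve of all genes over most of their range, and the constitutive curve ends in 3 genes above 0.

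Among the 44 genes the log2 fold had its largest correlation with base composition, though by rank the one with length was nearly as large. Pearson's r with the GC content of the longest transcript was 0.41 (Spearman's rho 0.32), with log10 exonic length -0.28 (rho -0.27) and with log10 mean CPM 0.17 (rho 0.06). Over all genes the same r values were 0.08, -0.06 and 0.02. The points share both libraries, so these values are descriptions. The 4 genes not lower had GC contents of 56.78% (Mad1l1), 56.28% (Cenpb), 55.33% (Cenpx) and 51.48% (Cenpt). Lower genes also had high GC contents, with 61.63% for Cenpv, the highest of the 44, 55.91% for Cenpm and 55.59% for Cenps.

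Genes that act in G2 and M phase are known to be controlled through the cell cycle genes homology region (CHR element) and CCAAT boxes near their start sites, and genes of G1 and S phase through E2F sites. RefSeq promoter windows (GRCm38.p6, 250 bases before to 50 after a start) were found for 39 of the 44 genes, and none were found for Aurkb, Incenp, Nsl1, Ska1 and Spc24. They were searched on both strands for the CHR letters TTTGAA or TTCGAA, for CCAAT, and for 4 forms of the E2F core. These were TTCCCGC, then TTCGCGC, then TTGCCGC and lastly TTGGCGC. The CHR letters were present in 40.9% of the members' 44 windows, in 13.3% of the 13219 windows of genes past 1 CPM and in 19.2% of all 32851 windows. Within 50 bases of the start they were present in 31.8% of the members' windows and in 3.55% of the windows of genes past 1 CPM (5.31% of all windows). CCAAT was present in 63.6%, 37.6% and 37.4% of these 3 sets of windows, and the E2F letters in 22.7%, 16.7% and 9.57%.

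The sequences around the CHR letters are shown for 7 genes with low log2 folds that hold them within 50 bases of a start. Each is a run of 26 bases, 5′ to 3′ on the strand on which the letters read as written, with the CHR letters in capitals.
Bub1: gcgcggggaaTTCGAAtcgccggcgg
Bub1b: gtcaagagacgttaaaTTTGAAactt
Ndc80: cccaaggcggTTTGAAttttaaagtt
Knl1: ggcggttagaTTTGAAtacttcaggg
Sgo1: aacgcagaatTTCGAAtgtggcggcg
Ska3: gcgctacacaTTTGAAtcctgcgcag
Cenpf: cggcgggcagTTTGAAtcgctcgtgc
The letters begin between 3 and 41 bases after the start in 6 of these genes and 14 bases before it in Ska3. For Bub1 the run is chr2:127831830-127831855 on the minus strand, and for Cenpf, where the letters begin at base 3, chr1:189688069-189688094 on the minus strand. In Bub1 and Sgo1 the letters TTCGAA read the same on both strands. In the other genes the letters stand on the gene's own strand except in Ndc80 and Ska3.

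The 250 bases before the start are shown for both ends of the order, Bub1 and Cenpe with the lowest ratios and Cenpb and Mad1l1 with the highest. Capitals mark CCAAT, or ATTGG where it lies on the other strand. They lie at chr2:127831860-127832109 (minus strand), chr3:135212313-135212562 (plus strand), chr2:131180068-131180317 (minus strand) and chr5:140321553-140321802 (minus strand).
Bub1: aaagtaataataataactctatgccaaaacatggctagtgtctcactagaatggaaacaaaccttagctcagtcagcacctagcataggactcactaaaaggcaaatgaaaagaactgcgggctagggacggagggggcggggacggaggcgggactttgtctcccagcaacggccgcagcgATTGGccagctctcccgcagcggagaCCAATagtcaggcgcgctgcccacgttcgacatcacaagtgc
Cenpe: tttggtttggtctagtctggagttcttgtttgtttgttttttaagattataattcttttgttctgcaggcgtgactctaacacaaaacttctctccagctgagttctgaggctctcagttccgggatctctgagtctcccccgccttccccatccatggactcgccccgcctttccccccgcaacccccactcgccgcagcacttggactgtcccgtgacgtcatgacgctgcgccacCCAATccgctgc
Cenpb: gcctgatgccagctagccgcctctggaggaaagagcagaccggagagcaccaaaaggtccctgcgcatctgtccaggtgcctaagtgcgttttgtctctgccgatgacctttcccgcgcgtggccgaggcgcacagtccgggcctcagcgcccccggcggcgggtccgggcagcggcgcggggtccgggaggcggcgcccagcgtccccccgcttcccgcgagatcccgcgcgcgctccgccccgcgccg
Mad1l1: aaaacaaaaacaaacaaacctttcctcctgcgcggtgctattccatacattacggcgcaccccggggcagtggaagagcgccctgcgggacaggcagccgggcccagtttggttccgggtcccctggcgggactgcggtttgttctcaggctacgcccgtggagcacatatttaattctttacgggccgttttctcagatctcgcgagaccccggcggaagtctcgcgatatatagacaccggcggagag
Bub1 holds 2 CCAAT boxes, 68 and 42 bases before its start, and Cenpe holds 1, 12 bases before it. Neither Cenpb nor Mad1l1 holds CCAAT or the CHR letters in these bases. Cenpb holds the E2F letters TTCCCGC 140 and 37 bases before its start. Over all members with a window, the log2 folds were not split by CCAAT in this way. The median was -0.53 for the 24 genes with CCAAT and -0.52 for the 15 without. At least 1.5-fold lower were 41.7% of those with CCAAT and 46.7% of those without.

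Both classes held CCAAT, and they differed in the other letters. CHR letters were found in 12 of 21 mitotic genes with a window (57.1%) and in 5 of 16 constitutive genes (31.2%). E2F letters were found in 2 of the 21 mitotic genes (9.52%) and in 8 of the 16 constitutive genes. The 17 genes with CHR letters were all below their control level (50.3% of all genes), with log2 folds from -1.06 to -0.37 and a median of -0.66. The 22 genes without them ran from -1.05 to 0.42, with a median of -0.48, and included all 4 genes that were not lower. Among all genes past 1 CPM the medians were -0.04 for the 1618 with CHR letters and 0.00 for the 8654 without. For the 445 with the letters within 50 bases of a start, members included, the median was -0.18. Of these 445 genes, 25.4% were at least 1.5-fold lower, beside 15.7% of all genes, with or without a window. Among genes past 1 CPM with a window, the share was 18.2% with CHR letters anywhere in it and 14.3% without. The 14 members with such near letters had a median of -0.67, and the other 25 with a window had -0.46. Split by E2F letters, the members had medians of -0.40 with and -0.63 without them. All genes past 1 CPM went the opposite way, with -0.06 with E2F letters and 0.01 without. No test was made of these differences, and a match of letters is not a site.

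**Figure D4:**
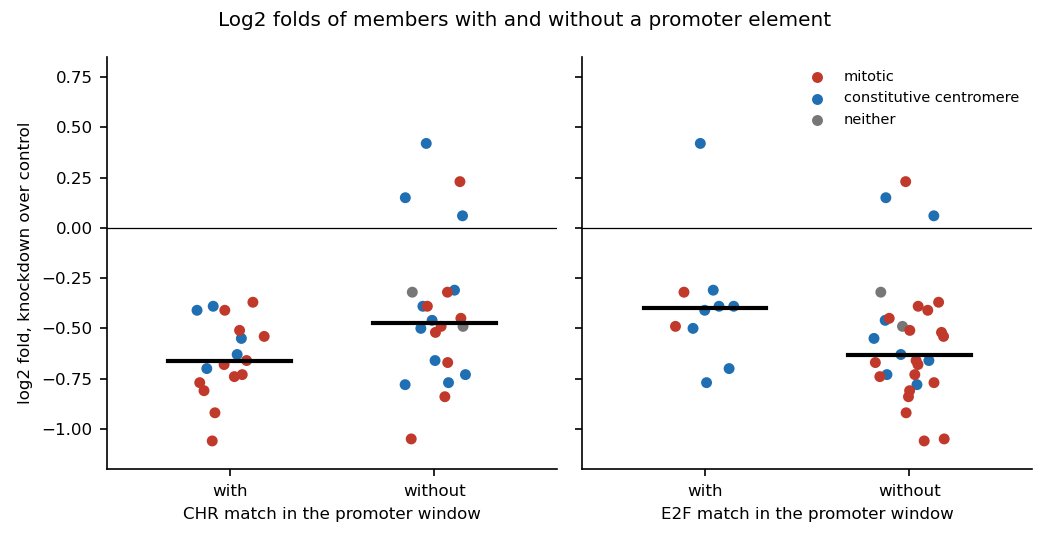
Log2 fold, knockdown over control, of the 39 genes with a promoter window, split by the presence of CHR letters (left) and E2F letters (right); points are genes coloured by class and black bars are medians. The genes above 0 stand among those without CHR letters, and the medians are -0.66 with and -0.48 without CHR letters, and -0.40 with and -0.63 without E2F letters.

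Genes that work beside the kinetochore were examined with lists taken from textbook knowledge. Beside the counts of these lists, here and below, 50.3% of all genes were lower and 15.7% at least 1.5-fold lower. All 13 genes of the corona, the RZZ complex and attachment were lower, 8 by 1.5-fold or more, and their median was -0.71 on the log2 scale. Kntc1, which encodes the Rod subunit that brings the checkpoint to the kinetochore, had 224 counts (14.2 CPM) in the knockdown library, against 513 counts (30.4 CPM) in the control library, a ratio of 0.467 (0.397 to 0.547). Spdl1, the dynein adaptor Spindly, had a log2 fold of -0.88, and Sgo2a, the second shugoshin, had -0.81 but shares 2455 exonic bases with another gene. The 6 centromere partners outside the symbol rule had a median of -0.45, and 5 of them were lower. Cenpc1, which encodes CENP-C and bridges inner and outer kinetochore, had -0.56, and the CENP-A chaperone Hjurp had -0.49. Itgb3bp, which encodes CENP-R and was named after its value was seen, had a ratio of 1.13 (0.894 to 1.42) and shares 398 exonic bases with another gene.

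The anaphase-promoting complex, the target of the checkpoint, showed a wider gap than the classes of the kinetochore. Its 14 core subunits had a median log2 fold of -0.04, and all 14 lay within 1.5-fold, as did 9681 of all 14158 genes. Anapc13 stood at 0.56, Anapc16 at 0.43 and Cdc27 at -0.42. A list of its activators, E2 enzymes and substrates, which also holds the inhibitor Fbxo5 and the kinase Cdk1, was lower in 11 of 11 cases, 6 at least 1.5-fold, with a median of -0.75. Ccna2, the cyclin A of S and G2 phase, had -0.87, Fbxo5 had -0.84 and Cdk1 had -0.84, though Ccna2 shares 510 exonic bases with another gene.

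The ring complexes of chromosomes divided in the same manner. The 11 cohesin genes, used through the whole cell cycle, had a median of -0.12. Only 1 of them was at least 1.5-fold lower (9.09%, below the 15.7% of all genes), Cdca5 (sororin) at -0.79. After it came Pds5b at -0.34 and Rad21 at -0.31. The 8 condensin genes, whose products compact chromosomes in mitosis, were all lower, 4 at least 1.5-fold, with a median of -0.67. Ncapg had 231 counts (14.6 CPM) in the knockdown library, against 639 counts (37.9 CPM) in the control library, but shares 944 exonic bases with another gene. Ncapg2 and Ncaph had log2 folds of -0.95 and -0.86. The 22 genes of S phase had a median of -0.64, with 12 at least 1.5-fold lower and Tyms, Cdc6 and Uhrf1 furthest at -1.27, -1.10 and -0.94, so lower levels were not confined to mitotic genes.

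**Figure D5:**
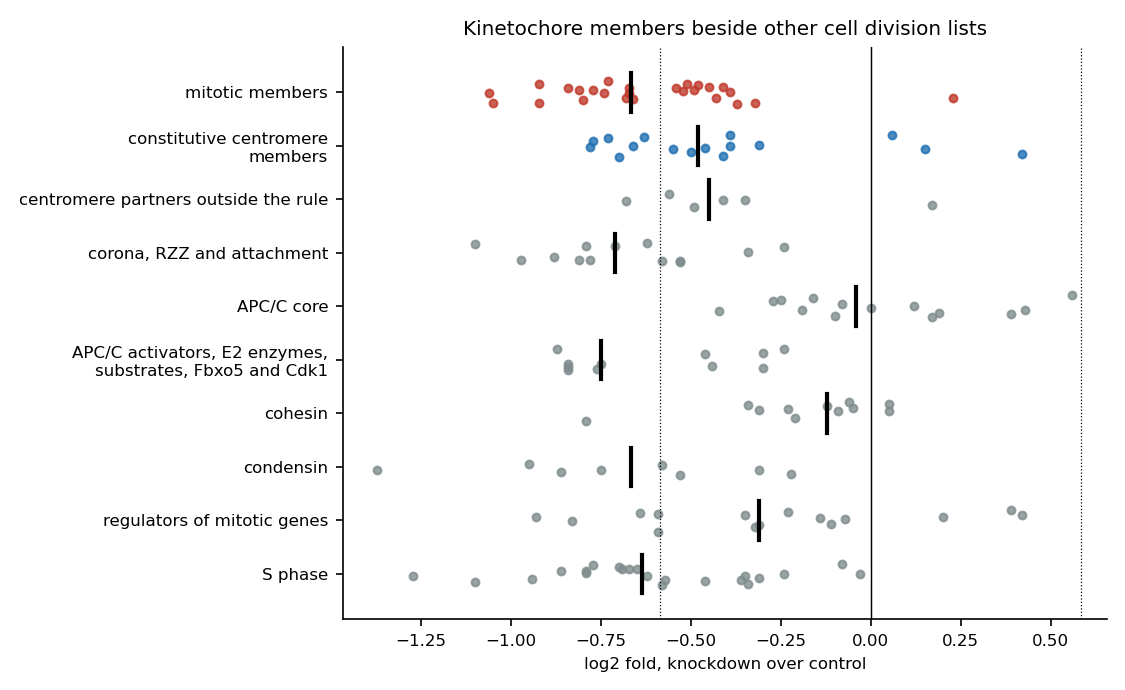
Log2 fold, knockdown over control, of each gene (points) with the list median (black bars) for the mitotic and constitutive kinetochore genes and for 8 other lists; dotted lines mark 1.5-fold. The core of the anaphase-promoting complex and cohesin centre near 0, at -0.04 and -0.12, while the other lists have medians from -0.31 to -0.75.

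A list of regulators of mitotic genes, which also holds E2F and Rb family factors, had log2 fold quartiles of -0.59 and -0.09. Those of the mitotic members were -0.79 and -0.46, while the ranges were alike, 1.35 and 1.29 log2 units. Of the 15 regulators, 12 were lower (50.3% of all genes) and 5 at least 1.5-fold (15.7%), with a median of -0.31. The repressors E2f7 and E2f8 had log2 folds of -0.93 and -0.64, and Lin54, the DNA-binding subunit of the MuvB complex that recognises CHR elements, had 214 counts (13.6 CPM) in the knockdown library, against 406 counts (24.1 CPM) in the control library. The ratio for Lin54 was 0.563 (0.475 to 0.666). The other Lin genes of the list, named after their values were seen, had log2 folds of -0.35 (Lin9), -0.23 (Lin37) and 0.42 (Lin52). Foxm1 and Mybl2, also named afterwards, had -0.31 and -0.11, so Lin54 does not stand for the list.

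Markers of other cell types differed between the libraries along with the kinetochore genes. Of 10 neuronal markers, 9 were lower (50.3% of all genes), and the 10 summed to 1198 CPM in the knockdown library and 2786 CPM in the control library. All 6 astrocyte markers in the table were higher (49.7% of all genes), summing to 1548 CPM in the knockdown library and 375 CPM in the control library. So were all 9 of the oligodendrocyte lineage, with 5224 CPM in the knockdown library and 2968 CPM in the control library. Marker RNAs of the neural lineages thus differed in both directions, most neuronal ones lower and all glial ones in the table higher. The 7 mesenchyme markers were all lower, with 40.9 CPM in the knockdown library and 332 CPM in the control library, and Lum stood at 0 in the knockdown library. All 8 microglia markers were lower, with 1.46 CPM in the knockdown library and 7.54 CPM in the control library, and Csf1r, C1qc, C1qb, Ptprc and Cx3cr1 stood at 0 in the knockdown library. Of 3 endothelial markers in the table, 2 were lower, summing to 1.14 CPM in the knockdown library and 2.37 CPM in the control library, and Cdh5 stood at 0 in the knockdown library. Only 1 of the 8 microglia markers and 1 of the 3 endothelial markers averaged 1 CPM or more. The shares over all genes, taken past that minimum, are no like measure for these near-floor markers. A count of 0 in the knockdown library allows a level of up to 0.190 CPM. The part of these cell types in the kinetochore result was not tested.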

How the data were processed

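RNA was sequenced from 1 knockdown (sh1) and 1 control (psicor) library, per the labels' protocols. TopHat2 2.0.12, HTSeq 0.6.0, Bowtie2 2.2.3 and the build mm9 are named, with no settings, in the submitters' processing notes. The table's coordinates fall on GRCm38 genes instead, since 42 of the 44 members have the same start and end in GENCODE M21. The authors deposited raw counts per gene per the file headers. From these the authors made columns of CPM, with 1 factor for each library, their ratio as a fold change, its log2, and a p-value and adjusted p-value from a test that is not named. The p-values were not used, and the fold columns were not used beyond the CPM they are made from.

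The members, lists, classes and thresholds were chosen with earlier results of these data known. Libraries were scaled with edgeR 4.0.16 TMM factors (0.982 for the knockdown, 1.018 for the control library). For log2 folds, always knockdown over control, 0.5 was added to each count before scaling; ratios and CPM had nothing added. Genes averaging 1 CPM or more were kept. Named genes outside the members are up to 3 per list by absolute log2 fold with a mean of at least 10 CPM, apart from those said to be named after their values were seen. A count of 3 stands as the floor for a library at 0. Alternatives were DESeq2 1.42.0 size factors, total counts, the authors' CPM, other minimums, a prior count of 5, exonic overlaps left out, removal of a length and GC trend, and other class memberships. The calculation was tested on simulated data. A few items of the lists and sequences are not reported here.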

Additional observations from a re-analysis of the deposited data

How the results depend on the processing

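The median over the 44 genes lay between -0.59 and -0.48 under every scaling, minimum, prior count and correction run, and the constitutive and mitotic medians lay between -0.55 and -0.41 and between -0.71 and -0.53. The number of genes at least 1.5-fold lower ran from 16 to 22. The number at least 2-fold lower was 1 in place of 2 after the length and GC trend was removed, and it was another gene, Aurkb at -1.01, with Bub1 at -0.97 and Cenpe at -0.90. The class difference kept its sign in every alternative, from -0.25 (a mean of at least 10 CPM) to -0.05 (trend removed). Of single genes, Cenpx changed sign with the trend removed, which left 41 of 44 below their control level, and no other gene changed sign under any scaling or prior count. The summed ratio was 0.759 in place of 0.926 without Cenpb in the constitutive class, and 0.641 in place of 0.656 without Zwint in the mitotic class, both chosen after seeing the data. Total-count scaling moved the median of all genes by -0.053 log2 units. No paired analysis was possible because each group has 1 library. Depth limits the scarcest genes, Cenpp and Cenpu, whose intervals span more than the difference between the classes.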

Other observations

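Mad2l2, a relative of Mad2 that works in DNA repair and was chosen after its value was seen, had 2844 counts (180 CPM) in the knockdown library, against 1196 counts (71.0 CPM) in the control library, a ratio of 2.54 (2.37 to 2.72). This is the opposite direction to Mad2l1, the checkpoint member of the pair.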
